A study of Mus musculus with 36 samples.

Results

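The genes described here are the 36 aminoacyl-tRNA synthetase genes of the mouse, 20 of them for cytosolic enzymes and 16 for mitochondrial ones. They were found by their symbols among the 21654 genes of the count table. All 36 had a row and all 36 had enough reads to be tested. Liver RNA came from 36 C57BL/6 mice of 6.4 to 13.9 weeks, 18 wild type and 18 Bmal1 knockout, with 3 mice for each genotype at ZT0, ZT4, ZT8, ZT12, ZT16 and ZT20. Zeitgeber time (ZT) counts hours from lights on. All mice were kept in alternating 12 h light and 12 h dark and could eat at will, and the labels name no drug or other agent for any group. By the title of the series the knockout dates from before birth. The knockout mice came from another laboratory, and the allele and the cells that lack the gene are not given in the sources used here. By label 9 mice of either genotype were male and 9 female, and 5 pairs of a wild-type and a knockout mouse shared a cage and a time.

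Aminoacyl-tRNA synthetases join each amino acid to its own tRNA, the step that fixes the meaning of the genetic code. The cytosol and the mitochondrion have mostly separate sets, both encoded in the nucleus, and several cytosolic enzymes assemble with the scaffold proteins AIMP1, AIMP2 and EEF1E1 into a multi-synthetase complex. Class I and class II enzymes have unrelated catalytic folds. Genes of cytosolic synthetases are known targets of ATF4, a transcription factor of the amino acid and stress response that binds C/EBP-ATF elements, while BMAL1 with CLOCK binds E-boxes to drive the circadian clock. Liver makes most plasma proteins and has a high demand for charged tRNA.

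Total counts lay between 12657858 and 12839653 per library. Arntl, the symbol under which the table lists Bmal1, had 443 to 478 reads in the 3 wild-type libraries of ZT0 and 10 to 16 in those of ZT8, against 182 to 312 in all 18 knockout libraries. Reads outside a deleted part of the gene do not test the deletion, but the 24 h course of Arntl differed between genotypes (edgeR adjusted p = 1.23e-07). One wild-type library of ZT16 (replicate 3) is labelled female but had 4 Xist and 1874 Ddx3y reads, the pattern of the libraries labelled male. The libraries of ZT16 and ZT20 stood apart in both genotypes by the GC content of the transcripts they favoured. Over 12906 tested genes with a known GC content, Spearman's rho between GC and the log2 difference of ZT16 and ZT20 against the other 4 times was -0.617 in wild type and -0.704 in knockout. Genes are not independent replicates, and time and library cannot be told apart in this value. Most counts of calls, and most time courses named below, are given with and without these libraries.

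Levels of the 36 mRNAs spanned 164-fold per kilobase of transcript. Levels are given in CPM, read counts set to a common library total after scaling by the TMM method of edgeR. On CPM per kilobase of the longest annotated transcript, the median over the 18 wild-type libraries was highest for Nars, which charges asparagine, at 47.0. Dars (aspartate) followed at 43.0, Aars (alanine) at 38.5, Tars (threonine) at 31.8 and Eprs, the joint enzyme for glutamate and proline, at 25.7. The lowest were Pars2 (mitochondrial proline) at 1.19 and Mars2 (mitochondrial methionine) at 0.287, the last against a transcript model of 11294 bases. The ranges over the 18 wild-type libraries overlapped between each of the 5 highest genes and the next in order. Summed over the class, the 20 cytosolic genes held 1292 ± 138 CPM in the wild type, against 1416 ± 143 CPM in the knockout (SD, n = 18 each). The sums ran from 1077 to 1479 CPM in wild type and from 1170 to 1724 CPM in knockout, so the genotypes overlapped widely. The mitochondrial genes without Lars2, 15 in all, held 319 ± 27.4 CPM in the wild type, against 375 ± 36.9 CPM in the knockout (SD, n = 18 each). Their sums ran from 269.3 to 355.1 and from 310.7 to 456.8 CPM. In whole liver, more RNA per cell and more cells of a type cannot be told apart.

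Synthetase mRNAs that differed between the genotypes over the whole day were all higher in Bmal1 knockout liver, by small amounts, in both classes. Over the mean of the 6 times, 15 of 36 members rose and 0 fell (edgeR quasi-likelihood F test, Benjamini-Hochberg adjusted p under 0.05 over 13201 genes), where 17.6% of all tested genes rose and 18.1% fell. At an unadjusted p under 0.05, 22 members were higher and 2 lower, the lower ones being Cars and Lars2. Of the 13201 tested genes, 5898 passed this unadjusted threshold in either direction. DESeq2 called 14 higher and 0 lower. The fitted difference was positive for 31 of 36 members and for 51.0% of all tested genes. The median log2 fold change was 0.14 for the cytosolic genes, of which 8 of 20 rose, and 0.18 for the mitochondrial genes, of which 7 of 16 rose, against 0.01 over all tested genes. Of the 8 cytosolic synthetases of the multi-synthetase complex, 4 rose (Eprs, Iars, Lars and Mars), and of the 12 outside it 4 rose (Gars, Hars, Sars and Tars). Class I cytosolic enzymes rose in 3 of 9 genes and class II enzymes in 4 of 10, with Eprs, a joint enzyme, counted in neither class. The called differences ran from 0.13 to 0.54 on the log2 scale, and 10 of the 15 called genes were higher in knockout at all 6 times.

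**Figure D1:**
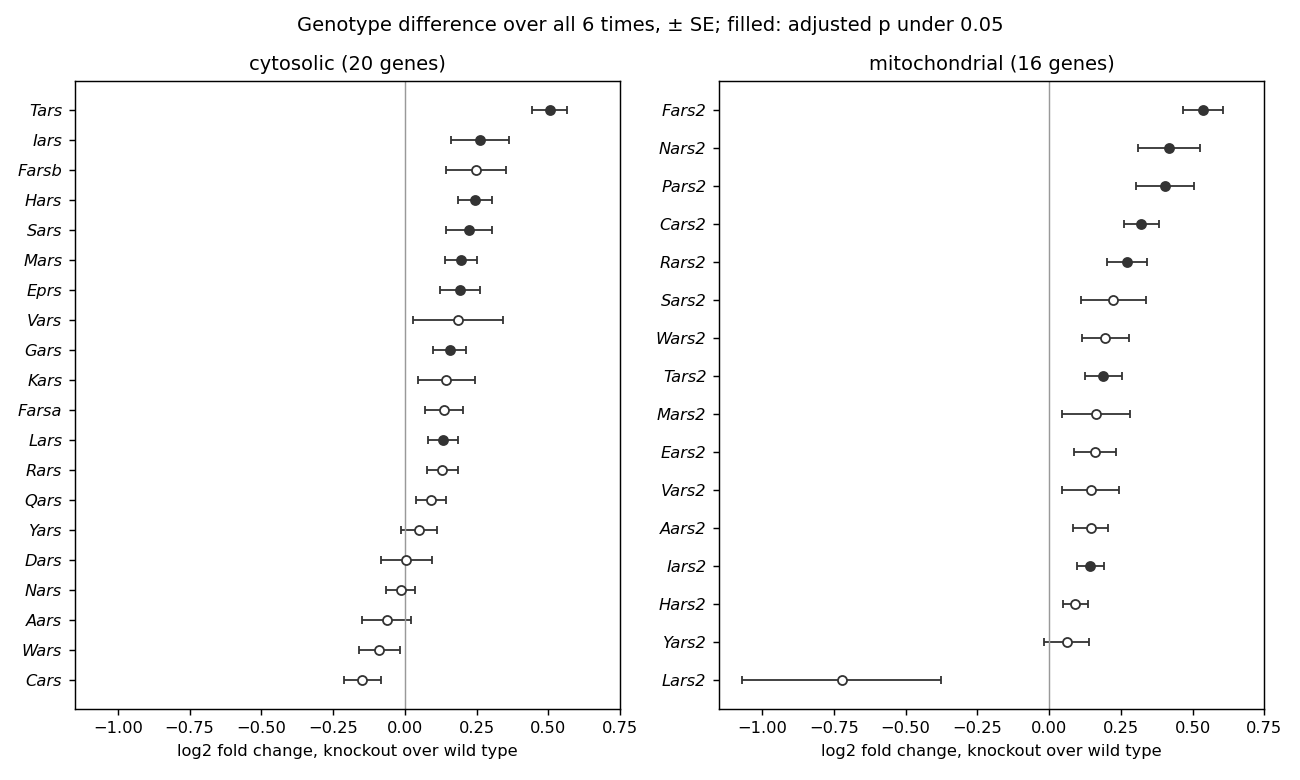
Log2 fold change of knockout over wild type, averaged over the 6 times, for the 20 cytosolic genes (left) and the 16 mitochondrial genes (right). Points are fitted values with the standard error, and filled points are the 15 genes with an adjusted p under 0.05. All filled points lie right of 0, with Fars2 at 0.54 and Tars at 0.51 farthest out, and Lars2 at -0.72 has the widest error.

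The number of cytosolic calls hung on single libraries, while 10 calls did not. Tars, Hars, Mars, Fars2, Cars2, Pars2, Rars2, Nars2, Iars2 and Tars2 kept their call without any 1 of the 36 libraries. Sars, Eprs, Gars, Lars and Iars had adjusted p values of 0.032 to 0.045, and their calls ended without 7, 9, 10, 21 and 25 of the 36 libraries in turn, each left out alone. The cytosolic count of 8 fell to 5 without wild-type ZT4 replicate 1, ZT8 replicate 1, ZT12 replicate 3, ZT16 replicate 3 or ZT20 replicate 3, and without knockout ZT0 replicate 2, ZT4 replicate 2, ZT8 replicate 3 or ZT12 replicate 2. It was 4 without wild-type ZT0 replicate 3, knockout ZT8 replicate 1 or knockout ZT16 replicate 2, and 3 without knockout ZT0 replicate 3. Without the 12 libraries of ZT16 and ZT20, 10 cytosolic and 10 mitochondrial genes rose and 1 cytosolic gene (Cars) fell, where 20.8% of all genes in that fit rose and 20.4% fell. Within those 12 libraries alone only Fars2 was called, where 1.36% of all genes rose. In the 5 cage pairs alone, 10 libraries with cage as a block, 0 members were called and 3 were higher at an unadjusted p under 0.05, where 0.57% of all genes rose (edgeR). The 15 genes called in all libraries were each positive there.

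Tars, which charges tRNA with threonine, had a daily course in wild type and none that was called in the knockout, where all libraries lay between 141 and 232 CPM. It lies on chromosome 15 at 11313418-11329413 (mm9). In wild type, Tars stood at 180.0, 199 and 199 at ZT0, 133, 125 and 127 at ZT4, 74.2, 73.7 and 93.9 at ZT8, 108, 100.2 and 73.3 at ZT12, 142, 138 and 126 at ZT16 and 231, 192 and 169 at ZT20, all in CPM. In the knockout, Tars stood at 178, 194 and 180.4 at ZT0, 179, 191 and 188 at ZT4, 232, 141 and 197 at ZT8, 169, 167 and 213 at ZT12, 195, 167 and 170.3 at ZT16 and 186, 214 and 177 at ZT20, all in CPM. At ZT4, ZT8, ZT12 and ZT16 each of the 3 knockout libraries was above each of the 3 wild-type ones, and at ZT0 and ZT20 the genotypes overlapped. The difference was 0.53 at ZT4 (log2, adjusted p = 0.0435), 1.24 at ZT8 (adjusted p = 1.45e-06) and 0.97 at ZT12 (adjusted p = 5.86e-05). At the other times it was -0.06 at ZT0, 0.39 at ZT16 and -0.04 at ZT20, none of them called. The ZT4 call ended without any of 17 single libraries, whereas those of ZT8 and ZT12 lasted without each of the 36. Fitted with a 24 h cosine, Tars had a peak-to-trough ratio of 2.55 with a peak at ZT21.6 in wild type (adjusted p = 2.79e-09) and a ratio of 1.03 in knockout (adjusted p = 0.946). The 2 courses differed (adjusted p = 1.29e-05), as did the 6 differences among each other (adjusted p = 0.000561). Tars was the only member whose course differed between genotypes, where 2.23% of all tested genes did. The wild-type ratio was 2.35 with the GC trend of each library removed. Without the libraries of ZT16 and ZT20 it was 2.72, with a fitted peak at ZT21.3. That peak lies outside the times left in the fit, so this ratio is extrapolated and is not a like measure. Tarsl2, a paralog of Tars, differed by -0.04 ± 0.07 over all times (adjusted p = 0.648).

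**Figure D2:**
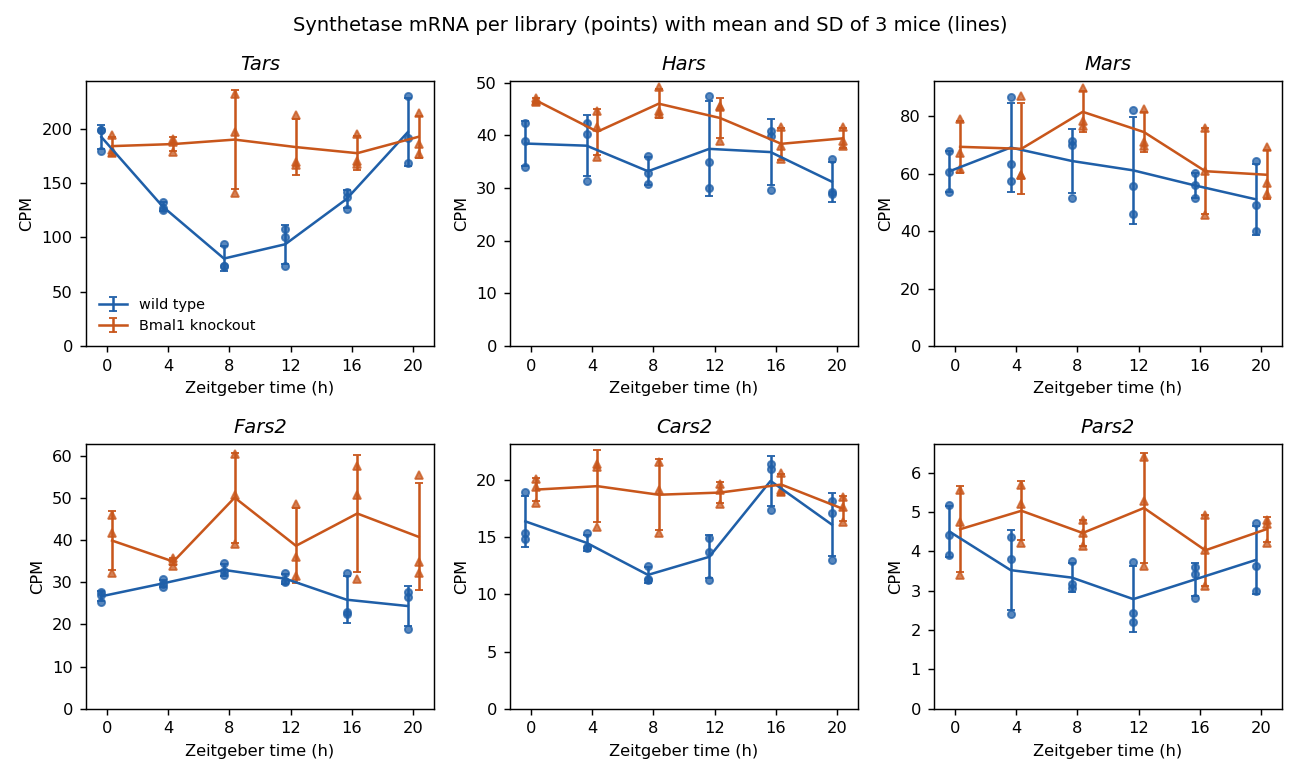
Level in CPM (y axes, from 0) against Zeitgeber time for 3 cytosolic (top) and 3 mitochondrial (bottom) synthetase genes, with circles for wild-type and triangles for knockout libraries, and lines with bars for the mean and SD of 3 mice. Wild-type Tars falls from a mean of 192 CPM at ZT0 to 80.6 at ZT8 while the knockout stays between 178 and 193, and Fars2 is higher in knockout at each time.

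The Tars promoter is printed because Tars had the one course that differed between genotypes and its promoter holds more matches to the searched motifs than that of any other member. RefSeq promoters on GRCm38.p6 run from 250 bases before to 50 after the start of transcription, and 26 of the 36 members have one. Capitals mark matches, on either strand, to the C/EBP-ATF element TGATGNAA, the E-box CACGTG and the NRF1 motif. The promoter lies at chr15:11399609-11399908 on the minus strand, and its matches begin at -169 (NRF1 motif), -15 (C/EBP-ATF element), 20 (E-box) and 26 (NRF1 motif) from the start, the last 2 side by side.
Tars: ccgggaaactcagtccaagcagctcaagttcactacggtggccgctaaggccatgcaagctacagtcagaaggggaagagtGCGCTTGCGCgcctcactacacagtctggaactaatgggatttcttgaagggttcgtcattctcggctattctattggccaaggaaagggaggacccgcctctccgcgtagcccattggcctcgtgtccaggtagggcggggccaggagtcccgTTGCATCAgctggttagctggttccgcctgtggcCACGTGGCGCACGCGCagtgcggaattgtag
The C/EBP-ATF element occurred in the promoters of 5 of 12 cytosolic members, Aars, Gars, Iars, Tars and Yars, in 0 of 15 promoters of 14 mitochondrial members and in 3.97% of all 32851 promoters. The windows of 40 bases around it in the other cytosolic promoters show the shared letters, which read TTGCATCA, TTTCATCA or, on the other strand, TGATGCAA. Aars at chr8:111033714-111033753 (plus strand), Gars at chr6:55037955-55037994 (plus strand), Iars at chr13:49682121-49682160 (plus strand) and Yars at chr4:129189890-129189929 (plus strand) are shown.
Aars: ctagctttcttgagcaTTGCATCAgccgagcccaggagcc
Gars: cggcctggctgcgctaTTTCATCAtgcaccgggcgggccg
Iars: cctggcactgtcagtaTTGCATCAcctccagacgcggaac
Yars: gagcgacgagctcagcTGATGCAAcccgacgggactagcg
Aars has a further match that begins at 10 from its start. Of these 5 genes, Tars, Gars and Iars rose over all times, with Iars at 0.26 ± 0.10, and Aars (-0.06 ± 0.09) and Yars (0.05 ± 0.06) did not pass the test. An E-box stood in 4 of the 12 cytosolic promoters (Aars, Farsb, Iars and Tars), in 1 of 15 mitochondrial ones (Ears2) and in 7.15% of all. Of the 5 genes with an E-box only Tars had a course that differed between genotypes. The NRF1 motif stood in 3 cytosolic promoters (Farsb, Kars and Tars), in 2 mitochondrial ones (Iars2 and Mars2) and in 4.6% of all. The D-box, TTATGTAA or TTACGTAA, stood in 0 of 12 cytosolic promoters, 0 of 15 mitochondrial ones and 1.06% of all. A match is a description of letters, and a promoter without one lacks these letters in this window only.

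Hars, Mars, Sars and Gars, the cytosolic genes next after Tars by p value, were higher in knockout by 0.16 to 0.24 on the log2 scale. For each of them the genotypes overlapped at 3 or more of the 6 times. Hars, for histidine, was at 42.4, 39 and 33.9 at ZT0, 31.4, 40.3 and 42.4 at ZT4, 30.7, 32.8 and 36 at ZT8, 47.4, 35 and 29.9 at ZT12, 29.7, 40.8 and 39.9 at ZT16 and 29.2, 35.5 and 28.9 at ZT20, all in CPM in wild type. In the knockout, Hars was at 46.3, 46.4 and 47.1 at ZT0, 36, 44.6 and 41.5 at ZT4, 49.2, 44.1 and 44.7 at ZT8, 38.9, 45.6 and 45.3 at ZT12, 35.5, 41.6 and 38 at ZT16 and 37.9, 38.8 and 41.5 at ZT20, all in CPM. Each knockout library of ZT0, ZT8 and ZT20 was above each wild-type library of that time, and the other 3 times overlapped. The difference was 0.24 ± 0.06 over all times (adjusted p = 0.00186) and 0.47 at ZT8 (adjusted p = 0.0382), and the ZT8 call ended without any 1 of the 6 libraries of that time. Hars and Hars2 lie head to head and share 198 bases, and counts were kept by strand.

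Mars, for methionine, gave in wild type 53.9, 68.1 and 60.7 at ZT0, 57.5, 63.3 and 86.8 at ZT4, 51.7, 70.2 and 71.6 at ZT8, 82.1, 55.7 and 45.9 at ZT12, 51.5, 60.4 and 56.1 at ZT16 and 39.9, 64.5 and 49 at ZT20, all in CPM. In the knockout, Mars gave 79.3, 67.2 and 61.8 at ZT0, 59.6, 87 and 59.6 at ZT4, 89.8, 76.6 and 78.5 at ZT8, 69.7, 71.3 and 82.7 at ZT12, 61, 75.9 and 45.8 at ZT16 and 56.9, 69.2 and 52.9 at ZT20, all in CPM. Only the ZT8 libraries did not overlap, with the knockout higher. The difference was 0.20 ± 0.06 (adjusted p = 0.00781), was called at no single time, and missed the threshold without the sex term (adjusted p = 0.0928). Mars shares 68 bases with Ddit3 on the other strand.

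Sars, for serine, read in wild type 57.6, 56.2 and 51.9 at ZT0, 55, 53.4 and 67.4 at ZT4, 58.2, 62 and 62.4 at ZT8, 61.6, 39.8 and 42.6 at ZT12, 24.5, 49.9 and 34 at ZT16 and 30.8, 46.3 and 22.9 at ZT20, all in CPM. In the knockout, Sars read 61.4, 59.2 and 62.5 at ZT0, 53, 67.6 and 51.9 at ZT4, 70.8, 66.2 and 62.6 at ZT8, 55.6, 53.2 and 67 at ZT12, 42.1, 40.5 and 39.7 at ZT16 and 53.1, 39.8 and 57.5 at ZT20, all in CPM. The genotypes did not overlap at ZT0 and ZT8, by small margins, while wild-type libraries of ZT16 and ZT20 spread from 22.9 to 49.9 CPM. The difference was 0.22 ± 0.08 (adjusted p = 0.0317) and missed the threshold without the libraries of ZT16 and ZT20 (adjusted p = 0.0599).

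Gars, for glycine and made for both compartments from 1 gene, came to 47.1, 50.9 and 45.5 at ZT0, 43.1, 44 and 43.7 at ZT4, 41.8, 52 and 41.2 at ZT8, 45.9, 41 and 39.5 at ZT12, 43, 39.2 and 35.5 at ZT16 and 35, 46.6 and 42.9 at ZT20, all in CPM in wild type. In the knockout, Gars came to 48, 57.1 and 52.8 at ZT0, 47.1, 51.7 and 49.3 at ZT4, 55.9, 45.9 and 47.6 at ZT8, 43.2, 48 and 46.8 at ZT12, 37.1, 59.7 and 38.2 at ZT16 and 38.9, 54.4 and 44.8 at ZT20, all in CPM. Only the libraries of ZT4 did not overlap, with the knockout higher. The difference was 0.16 ± 0.06 (adjusted p = 0.0325), positive at all 6 times and called at none.

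The remaining cytosolic calls were Eprs at 0.19 ± 0.07 (adjusted p = 0.0327), Iars for isoleucine at 0.26 (adjusted p = 0.0438) and Lars for leucine at 0.13 (adjusted p = 0.0450), all members of the multi-synthetase complex. Of the complex, Kars for lysine at 0.14 ± 0.10, Rars for arginine at 0.13 ± 0.05 (adjusted p = 0.0623) and Qars for glutamine at 0.09 ± 0.05 did not pass the test, nor did Dars. Farsa and Farsb, the subunits of the phenylalanine enzyme, stood at 0.14 ± 0.07 and 0.25 ± 0.11 without passing the test. Vars for valine was at 0.18 ± 0.16. The differences of the other 6 lay from -0.15 to 0.05: Cars for cysteine at -0.15 ± 0.06 (adjusted p = 0.0729), Wars for tryptophan at -0.09 ± 0.07, Aars at -0.06 ± 0.09, Nars at -0.01 ± 0.05, Dars at 0.00 ± 0.09 and Yars for tyrosine at 0.05 ± 0.06. Dars turned to -0.01 with DESeq2 size factors.

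Fars2, the mitochondrial enzyme for phenylalanine, was the member with the largest rise over all times. It lies on chromosome 13 at 36209280-36629461 (mm9). In wild type, Fars2 was at 25.4, 27.8 and 26.9 at ZT0, 29, 29.5 and 30.7 at ZT4, 34.6, 32.6 and 31.6 at ZT8, 32.2, 30.3 and 30.1 at ZT12, 22.5, 32.2 and 22.9 at ZT16 and 27.7, 26.6 and 18.8 at ZT20, all in CPM. In the knockout, Fars2 was at 45.9, 41.7 and 32.1 at ZT0, 35.7, 34 and 35 at ZT4, 60.5, 50.6 and 39.1 at ZT8, 31.4, 36 and 48.6 at ZT12, 50.6, 57.6 and 30.8 at ZT16 and 34.7, 55.3 and 32.3 at ZT20, all in CPM. Every knockout library was above every wild-type library at ZT0, ZT4, ZT8 and ZT20, and at ZT12 and ZT16 the lowest knockout library lay within the wild-type range. The mean rose from 28.4 ± 4.07 to 41.8 ± 9.84 CPM (SD, n = 18 each), a log2 difference of 0.54 ± 0.07 (adjusted p = 9.24e-07). The difference was called at ZT8 (0.58, adjusted p = 0.0340), ZT16 (0.82, adjusted p = 0.00305) and ZT20 (0.72, adjusted p = 0.0185). The calls of ZT8 and ZT20 ended without any of 5 and 3 single libraries. Within the libraries of ZT16 and ZT20 alone, Fars2 was the 1 member called (adjusted p = 0.0306).

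Cars2, the mitochondrial enzyme for cysteine, was higher in knockout over all times. In wild type, Cars2 was at 18.9, 15.4 and 14.9 at ZT0, 14.2, 15.3 and 14 at ZT4, 12.5, 11.2 and 11.3 at ZT8, 14.9, 13.7 and 11.3 at ZT12, 21, 17.4 and 21.4 at ZT16 and 13, 17.1 and 18.2 at ZT20, all in CPM. In the knockout, Cars2 was at 20.1, 18 and 19.4 at ZT0, 15.9, 21.2 and 21.4 at ZT4, 19.2, 15.4 and 21.6 at ZT8, 17.9, 19.7 and 19.1 at ZT12, 20.7, 19 and 19.2 at ZT16 and 18.5, 17.6 and 16.4 at ZT20, all in CPM. The knockout libraries were above all wild-type ones at ZT4, ZT8 and ZT12, and the genotypes overlapped at ZT0, ZT16 and ZT20. The difference was 0.32 ± 0.06 over all times (adjusted p = 0.000117), 0.68 at ZT8 (adjusted p = 0.00319) and 0.51 at ZT12 (adjusted p = 0.0229). At ZT4 it was 0.42 (adjusted p = 0.117), and the test for unequal differences at the 6 times was not called (adjusted p = 0.342). Wild-type Cars2 had a 24 h ratio of 1.49 with a peak at ZT19.3 (adjusted p = 0.00277), and the knockout had a ratio of 1.04 (adjusted p = 0.943). The difference between the 2 courses was not called (adjusted p = 0.175), though it was without wild-type ZT20 replicate 1 (adjusted p = 0.0423).

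Pars2, the mitochondrial enzyme for proline, is among the least abundant members, with 30 to 85 reads per library. In wild type, Pars2 was at 5.19, 4.41 and 3.92 at ZT0, 2.4, 3.80 and 4.36 at ZT4, 3.17, 3.07 and 3.76 at ZT8, 3.73, 2.43 and 2.19 at ZT12, 3.60, 3.43 and 2.82 at ZT16 and 3.64, 4.72 and 2.99 at ZT20, all in CPM. In the knockout, Pars2 was at 4.74, 3.39 and 5.56 at ZT0, 5.69, 5.19 and 4.21 at ZT4, 4.46, 4.80 and 4.14 at ZT8, 3.62, 6.41 and 5.28 at ZT12, 3.12, 4.92 and 4.04 at ZT16 and 4.20, 4.79 and 4.70 at ZT20, all in CPM. The genotypes did not overlap at ZT8, and at ZT12 the lowest knockout library was within the wild-type range. The difference was 0.40 ± 0.10 (adjusted p = 0.00226) over all times and 0.89 at ZT12 (adjusted p = 0.0184), and the ZT12 call ended without any of 3 single libraries.

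Of the other mitochondrial genes, Nars2 rose by 0.42 ± 0.11 (adjusted p = 0.00343), Rars2 by 0.27 ± 0.07 (adjusted p = 0.00311), Tars2 by 0.19 (adjusted p = 0.0233) and Iars2 by 0.14 ± 0.05 (adjusted p = 0.0169). They charge asparagine, arginine, threonine and isoleucine, and each was higher at all 6 times and called at none. Values for 8 others lay from 0.06 to 0.22 and did not pass the test: Sars2 at 0.22 ± 0.11, Wars2 at 0.20 ± 0.08, Mars2 at 0.16 ± 0.12, Ears2 at 0.16 ± 0.07, Vars2 at 0.15 ± 0.10, Aars2 at 0.14 ± 0.06, Hars2 at 0.09 ± 0.04 and Yars2 at 0.06 ± 0.08. Lars2 is described separately. Tars and Tars2, and Iars and Iars2, were called in both compartments, whereas Hars, Lars, Mars and Sars were called without their mitochondrial partners, and Fars2, Cars2, Nars2 and Rars2 without their cytosolic ones. No test compared the members of a pair.

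At single times, 7 of the 11 calls of members fell at ZT8 and ZT12, where 53.9% of the 5016 calls of all tested genes fell as well. At ZT8 the fitted difference was positive for 35 of 36 members, against 51.3% of all tested genes. At ZT0, ZT4, ZT12, ZT16 and ZT20 it was positive for 27, 24, 30, 23 and 30 members. The median over the members was 0.11, 0.14, 0.19, 0.24, 0.08 and 0.20 on the log2 scale at ZT0, ZT4, ZT8, ZT12, ZT16 and ZT20. Calls were few at any time: 4 members rose at ZT8 (Tars, Cars2, Fars2 and Hars), 3 at ZT12 (Tars, Cars2 and Pars2), 1 at ZT4 (Tars), 1 at ZT16 (Fars2) and 1 at ZT20 (Fars2), and 1 fell at ZT0 (Lars2). Of all tested genes, 4.61% rose and 3.95% fell at ZT8, and 6.03% rose and 5.89% fell at ZT12. At ZT4 it was 2.32% and 1.24%, at ZT16 4.03% and 4.58%, at ZT20 1.63% and 1.75%, and at ZT0 1.06% and 0.909%. All 3 knockout libraries stood above all 3 wild-type ones for 13 members at ZT8 (16.6% of all genes), 11 at ZT12 (15.1%) and 11 at ZT4 (14.5%). This held for 8 members at ZT0 (14.3%), 5 at ZT20 (6.14%) and 4 at ZT16 (8.97%). All 3 knockout libraries stood below for 3 members at ZT0 (11.1%), 1 at ZT4 (11%) and 1 at ZT16 (8.14%), and for 0 members at ZT8 (15.2%), ZT12 (13.2%) and ZT20 (6.22%). Without the libraries of ZT16 and ZT20, 10 members were called at ZT8 and 9 at ZT12. The share of all genes called at single times in that fit was not counted, so these 2 numbers have no background. Over all times, 41.2% of all genes were called in that fit and 35.7% in the fit of all libraries. The genotype difference varied between the times for Tars and Lars2 alone (1.67% of all genes), and Lars2 rests on 1 library.

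**Figure D3:**
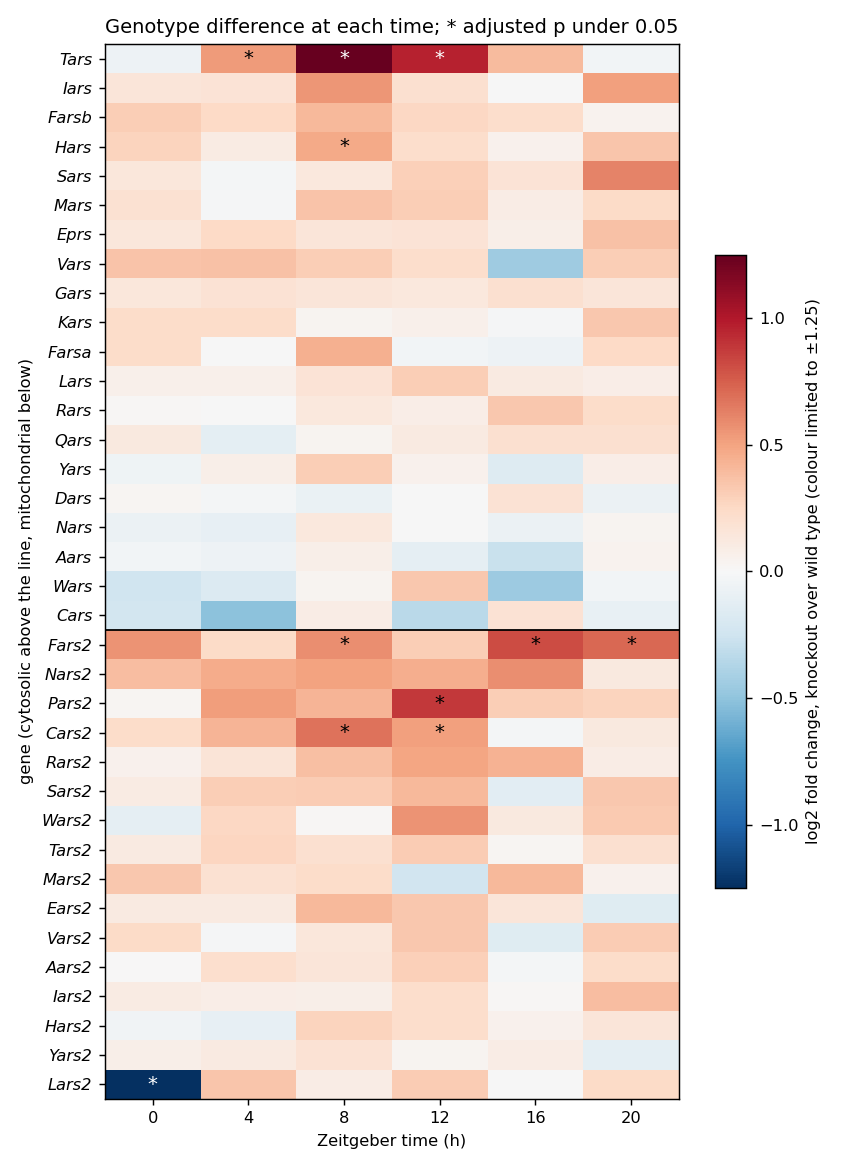
Log2 fold change of knockout over wild type (colour, red higher and blue lower in knockout) at each Zeitgeber time for the 36 genes, sorted within class by the difference over all times. Stars mark an adjusted p under 0.05, the colour scale is clipped at either end, and the dark cell of Lars2 at ZT0 stands for -5.33.

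A 24 h course was called for 22 of 36 members in wild type, or 61.1%, where 56.4% of all tested genes were called. In knockout it was called for 13, or 36.1%, where 48.3% of all genes were. Both genotypes shared 12 of them, 10 were called in wild type alone, Yars in knockout alone, and 13 in neither. Lars2, counted in wild type alone, was called in both genotypes without its 1 library of 24865 reads. A call in 1 genotype alone does not show a difference, and of these 11 only Tars had one. Among the 12 shared, peak times differed by a median of 0.451 h and at most 1.89 h, and over the 5020 tested genes called in both genotypes the median was 0.83 h. In wild type 12 members peaked from ZT4 to ZT8.5, 7 from ZT14 to ZT20 and 3 between ZT20 and ZT4. The knockout had 9 and 4 of the first 2 kinds.

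Rars2 and Aars2 had the smallest p values for a wild-type course after Tars and stood for the night and the day group. In wild type, Rars2 was at 18.8, 17.5 and 17.6 at ZT0, 11.7, 12.8 and 13.5 at ZT4, 11.6, 14.9 and 13.5 at ZT8, 13.4, 12.8 and 11 at ZT12, 27, 18.7 and 20.8 at ZT16 and 24.2, 20.2 and 26.2 at ZT20, all in CPM. In the knockout, Rars2 was at 17.8, 18.1 and 20.1 at ZT0, 12.4, 14.8 and 15.4 at ZT4, 20.1, 14.9 and 16.9 at ZT8, 13.6, 19.9 and 19.1 at ZT12, 29.8, 27.8 and 32 at ZT16 and 23.3, 32.8 and 20.1 at ZT20, all in CPM. In knockout all 6 libraries of ZT16 and ZT20 were above the 12 others, the closest at 20.12 and 20.06 CPM, and in wild type the same held except for 1 library of ZT0. Its ratio was 2.01 with a peak at ZT19.4 in wild type (adjusted p = 2.85e-05) and 1.93 at ZT17.5 in knockout (adjusted p = 0.000133). On the other 4 times alone, without ZT16 and ZT20, the wild-type ratio was 1.54 (adjusted p = 0.041) and the knockout ratio 1.39 (adjusted p = 0.529). The fitted peaks, at ZT20.6 and ZT17.6, then lay outside the times fitted, so both ratios are extrapolated.

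Aars2, the mitochondrial alanine enzyme, ran the other way. In wild type, Aars2 was at 21.1, 20.7 and 22.6 at ZT0, 21.4, 23.1 and 27.9 at ZT4, 23.3, 23.9 and 26.5 at ZT8, 26.5, 20.4 and 18.6 at ZT12, 13, 13.5 and 13.7 at ZT16 and 12.8, 17.8 and 11.3 at ZT20, all in CPM. In the knockout, Aars2 was at 25.2, 20.6 and 19 at ZT0, 24.6, 32.8 and 26.2 at ZT4, 27.3, 30.3 and 24.4 at ZT8, 26.9, 27.4 and 25.4 at ZT12, 12.8, 15.7 and 11.4 at ZT16 and 17.6, 13 and 17.5 at ZT20, all in CPM. The libraries of ZT16 and ZT20 were the 6 lowest in each genotype. Its ratio was 1.94 at ZT6.0 in wild type (adjusted p = 0.000104) and 2.06 at ZT6.5 in knockout (adjusted p = 0.000108). On the other 4 times alone the ratios were 1.30 (adjusted p = 0.359) and 1.44 (adjusted p = 0.203).

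The direction of the time course ran with the GC content of the transcript. Members that peaked by day in wild type had a median GC of 53.5% (47.2% to 60.9%) and those that peaked from ZT14 to ZT20 one of 44.8% (38.8% to 48.2%). Over the 36 members, Spearman's rho between GC and the log2 difference of ZT16 and ZT20 against the other times was -0.771 in wild type and -0.764 in knockout, where the members share libraries and depth. The values over all tested genes, -0.617 and -0.704, are given above. Leaving aside Lars2 with its 1 outlying library, Vars, with a GC of 60.9%, had the largest ratio in wild type, 4.75. It also had the largest in knockout, 6.42, with peaks at ZT6.3 and ZT5.8. Vars2 had ratios of 3.46 and 3.34 and Sars2 of 3.15 and 3.72. Dars, with a GC of 41.2%, peaked at ZT16.7 in each genotype with ratios of 1.86 and 2.04. These ratios were smaller under both alternatives. With the GC trend of each library removed, wild type and knockout stood at 2.58 and 3.11 for Vars, 1.98 and 1.77 for Vars2, 1.68 and 1.84 for Sars2 and 1.23 and 1.26 for Dars. A cosine fitted without ZT16 and ZT20 covers only ZT0 to ZT12, so its ratios are not a like measure. With ZT16 and ZT20 left out, the ratios of Vars were 1.08 and 1.06, and those of Sars2 1.27 and 1.33, none of them called. Vars2 then had 1.47 in wild type (adjusted p = 0.0172) and 1.04 in knockout, and Dars 1.26 (adjusted p = 0.0403) and 1.32 (adjusted p = 0.14). Kars had a GC of 47.3%, a peak at ZT6.0 in wild type and a ratio of 1.91 in both genotypes. With the GC trend of each library removed, 15 members were called in wild type (44.8% of all genes) and 11 in knockout (26.1%). The course of Kars then had a ratio of 2.06 in wild type, and that of Aars2 a ratio of 1.05 that was not called. With ZT16 and ZT20 left out instead, Kars was at 1.09 in wild type (adjusted p = 0.82) and 1.16 in knockout (adjusted p = 0.421). Without the libraries of ZT16 and ZT20, 8 members were called in wild type (16.3% of all genes) and 0 in knockout (0.724%), with 2 in knockout at an unadjusted p under 0.05. The 8 were Cars2, Dars, Ears2, Lars2, Rars2, Tars, Vars2 and Wars. For Lars2 this fit still held the 1 wild-type library of 24865 reads and gave a ratio of 127.7, extrapolated to a peak at ZT20.5.

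**Figure D4:**
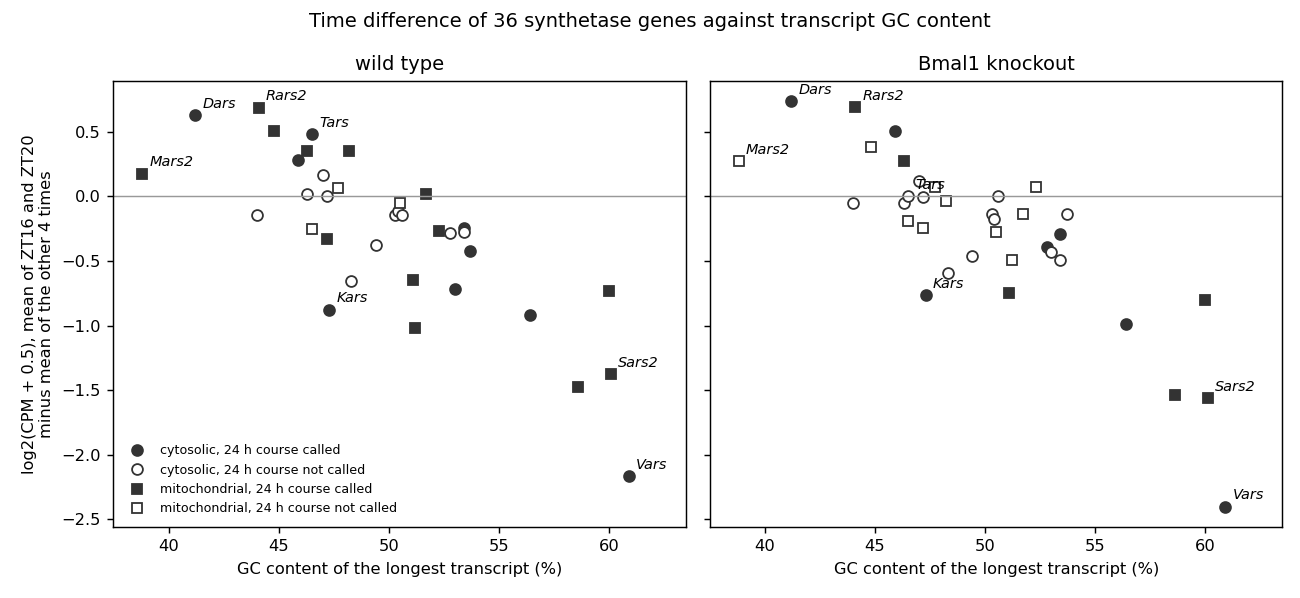
Mean log2(CPM + 0.5) of ZT16 and ZT20 minus that of the other 4 times (y) against the GC percentage of the longest transcript (x) for the 36 genes, in wild type (left) and knockout (right), with filled symbols for a called 24 h course. Points fall from upper left to lower right in both genotypes, and Tars moves from 0.48 in wild type to 0.00 in knockout.

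Lars2, the mitochondrial leucine enzyme, was set apart by 1 library. It lies on chromosome 9 at 123276058-123371782 (mm9). In wild type, Lars2 was at 15.4, 1857 and 15.6 at ZT0, 14.5, 13.1 and 16.1 at ZT4, 14.6, 15.8 and 15.3 at ZT8, 13.9, 14.1 and 12.1 at ZT12, 7.87, 12.9 and 9.94 at ZT16 and 10.8, 11 and 11.6 at ZT20, all in CPM. In the knockout, Lars2 was at 15.1, 14.5 and 14.9 at ZT0, 21.2, 17.3 and 16.4 at ZT4, 16.1, 16.5 and 16.2 at ZT8, 17.9, 17.4 and 14.6 at ZT12, 8.26, 11.5 and 10.7 at ZT16 and 12.5, 14.2 and 12.9 at ZT20, all in CPM. Replicate 2 of wild-type ZT0 held 24865 Lars2 reads, 0.196% of its total, against 83 to 280 in the other 35 libraries. No other member fell outside the range of the other 35 libraries there, and 9 tested genes were over 10-fold above their median in that library, where single libraries had 3 to 28 such genes. The source of these reads was not tested. With this library the ZT0 difference was -5.33 (adjusted p = 0.00221), the interaction was called (adjusted p = 0.0498) and the difference over all times was -0.72 ± 0.35 (adjusted p = 0.106). Without it the values were -0.06 (adjusted p = 0.968), 0.919 as the adjusted p of the interaction, and 0.15 over all times (adjusted p = 0.0649). The other 17 wild-type libraries held 13.2 ± 2.36 CPM (SD). Without the library, a 24 h course was called in wild type (adjusted p = 0.00598) and in knockout (adjusted p = 0.00195).

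**Figure D5:**
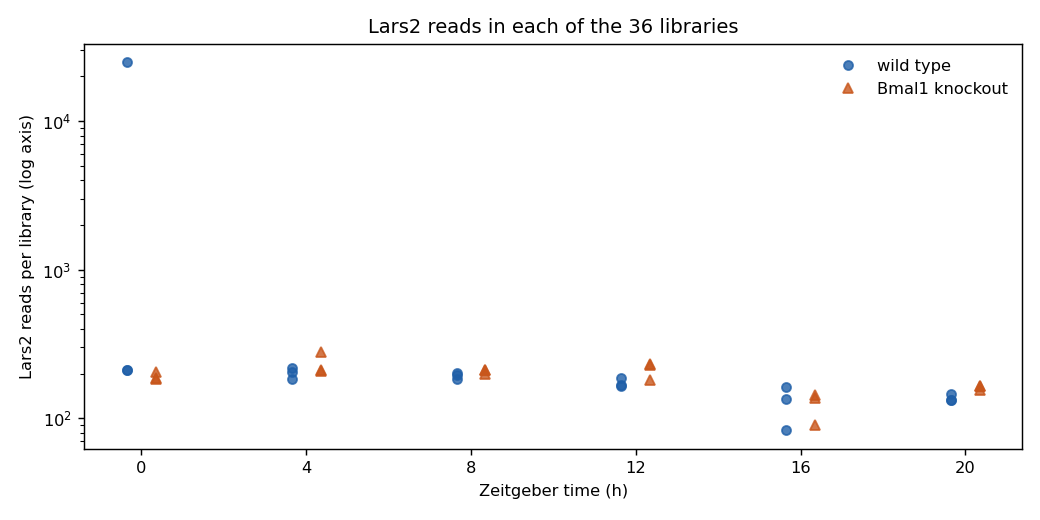
Lars2 reads (y, log axis) in each of the 36 libraries against Zeitgeber time, circles for wild type and triangles for knockout. One wild-type library of ZT0 lies at 24865 reads and the other 35 between 83 and 280.

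Synthetase mRNAs that differed between the sexes were all lower in mice labelled female. With both genotypes and all times in 1 fit, 9 of 36 members were lower and 0 higher (edgeR), where 6.51% of all tested genes were lower and 6.94% higher. At an unadjusted p under 0.05 in edgeR, 14 members were lower and 1 higher, where 3587 of the 13201 tested genes passed in either direction. DESeq2 called 12 lower and 0 higher. Mars differed most clearly, by -0.37 (log2, adjusted p = 8.23e-05), followed by Fars2 at -0.30 (adjusted p = 0.00861) and Nars2 at -0.40 (adjusted p = 0.0192). The others were Lars (-0.19), Qars (-0.19), Nars (-0.18), Yars (-0.21), Yars2 (-0.26) and Iars2 (-0.15). The median over the members was -0.14 and over all genes -0.02. Mars, Fars2 and Lars kept this call without any 1 of the 36 libraries. The count was 5 without wild-type ZT8 replicate 1, knockout ZT4 replicate 2 or knockout ZT16 replicate 3, and 4 without wild-type ZT12 replicate 1. It was 10 without the library whose label and Xist reads disagree.

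Some genes that work with the synthetases rose in knockout, where 17.6% of all tested genes rose and 18.1% fell. Of 7 tested partner and proofreading genes 2 rose: Aimp1, a scaffold of the complex, at 0.24, and Aarsd1, a free-standing editing domain for alanine, at 0.24. The other scaffold genes, Aimp2 at 0.13 ± 0.09 and Eef1e1 at -0.12 ± 0.12, did not pass the test. Mitochondria make Gln-tRNA by an amidotransferase, and of its genes with the Met-tRNA formyltransferase 2 of 4 rose, Qrsl1 at 0.28 and Mtfmt at 0.27. Of 31 tested genes of tRNA maturation 6 rose and 1 fell, among them Trmt1, a tRNA methyltransferase, at 0.32 and Pop4, a subunit of ribonuclease P, at 0.33. Of 12 genes of eIF2, its kinases and eIF2B, 2 rose (Eif2b5 at 0.21 and Eif2s3x at 0.23). For tRNA maturation and for this list the counts of higher genes were near the share of all tested genes. The lists of 7 and 4 genes are too short to set against that share.

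Of 25 tested genes of the ATF4 response, 3 rose and 6 fell, with a median of -0.09. Atf5, a factor of the same family, rose by 1.30 ± 0.12 from 159.5 ± 94.3 to 361 ± 142 CPM (SD, n = 18 each), while Atf4 fell by 0.27 (adjusted p = 0.00082) and Eif4ebp1, a repressor of translation initiation, fell by 0.56. Asns, the asparagine synthetase and a known target of ATF4, fell by 2.29 (log2) from a low and uneven level, 2.39 ± 3.35 CPM in wild type against 0.296 ± 0.314 in knockout (SD, n = 18 each). Among 26 cytosolic translation factors 10 rose and 0 fell, with a median of 0.14. Eef1a1, the factor that carries charged tRNA to the ribosome, rose from 4050 ± 370 to 5580 ± 820.4 CPM (SD, n = 18 each), by 0.46. Eif1a rose by 0.61, Eif4b by 0.42 and Eef1g by 0.43. Of 16 mitochondrial translation factors 2 rose and 2 fell, among them Gfm1, an elongation factor, which fell by 0.22. Of 14 tested genes on a list of MYC, related factors such as Max and Mlx, and targets, 2 rose and 4 fell. All these lists were read at the same background of 17.6% higher and 18.1% lower, and none was tested as a list.

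Markers of liver cell types were set against the same background, where 17.6% of all tested genes rose in knockout and 18.1% fell. All 11 Kupffer cell and macrophage markers fell (sum of 120 to 482 CPM in wild type and 83.2 to 391 CPM in knockout), as did 6 of 10 sinusoidal endothelial markers (177 to 377 and 164 to 350 CPM), 2 of 8 stellate cell markers, 2 of 6 markers of lymphocytes and neutrophils and 1 of 5 erythroid markers. Of 8 hepatocyte markers analysed 2 rose (28400 to 43100 and 31400 to 54500 CPM). Of the cholangiocyte markers 1 rose and 1 fell of 5, and 1 of 2 tested acinar markers rose. The counts for stellate, erythroid, hepatocyte and cholangiocyte markers lay near the shares of all tested genes. No marker was at 0 in all libraries. Their part in the synthetase differences was not tested.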

How the data were processed

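Liver mRNA was measured by stranded sequencing in 36 mice. The authors deposited counts of sense-strand reads per gene, 1 column per mouse. CASAVA, STAR 2.4.0f1 and mm9 are named in the submitters' processing notes, and the counting program, its annotation and any filter are not given in the sources used here. Totals lay between 12657858 and 12839653, and whether a common depth was set is not stated. Members had from 17 reads (Mars2) upwards per library, and few reads mean wide errors. Replicates are separate mice by label, numbered in accession order.

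Counts were fitted with edgeR 4.0.16 in R 4.3.3 (TMM scaling, filterByExpr with a minimum count of 10 and a minimum total of 15, 13201 genes tested). Quasi-likelihood F tests used 12 group means and labelled sex, with no term for cage. The contrast over all times is the mean of the 6 knockout minus wild-type differences, and the interaction tests their equality. The 24 h cosine fit has genotype, sex and a cosine and a sine term per genotype, over 6 times of a single day. Adjusted p values are Benjamini-Hochberg values from edgeR over all genes tested, called under 0.05, unless DESeq2 1.42.0 is named. Values after ± are standard errors of log2 fold changes unless marked SD. GC content and length are those of the longest transcript in GENCODE M21. The fits were tested on simulated counts that had a single spread for all genes, no GC shift and no cage effect. Most differences called here were smaller than those simulated, so the simulation does not cover them.

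Members and lists were chosen with earlier results of these data known. Values in every library are given for the 5 cytosolic and 3 mitochondrial members with the smallest p over all times, the 3 smallest for a rhythm difference, the 3 smallest for a wild-type rhythm, and Lars2. Of other lists, up to 4 genes with the smallest p are named, with Arntl as the targeted gene. Tarsl2, Aimp2 and Eef1e1 were added after their values were seen. Alternatives were DESeq2 size factors, no filter, a minimum mean of 1 CPM, no sex term, age as a term, removal of the ZT16 and ZT20 libraries, removal of each library's GC trend, DESeq2, and each library left out in turn. A fit of the ZT16 and ZT20 libraries alone, and fits of the 5 wild-type and knockout pairs that share a cage and a time, with cage or with time as a term, were added after seeing the data.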

Additional observations from a re-analysis of the deposited data

Results flagged for a closer look

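For 2 genes the difference between the genotypes itself differed between the times of day. Tars was higher in knockout at ZT4, ZT8 and ZT12 and differed by -0.06 and -0.04 (log2) at ZT0 and ZT20, with an adjusted p of 0.000561 for unequal differences at the 6 times and of 1.29e-05 for a 24 h course that differed between genotypes (edgeR). Both calls lasted without any 1 of the 36 libraries, with adjusted p values of at most 0.0027 and 4.85e-05. They also lasted under 8 other settings, namely DESeq2 size factors, no filter, a minimum of 1 CPM, no sex term, an age term, no ZT16 and ZT20 libraries, GC trend removed, and DESeq2. Lars2 had an adjusted p of 0.0498 for unequal differences, which became 0.919 without replicate 2 of wild-type ZT0, the library with 24865 Lars2 reads. The call ended in 33 of the 36 fits that left out 1 library. Beyond leaving out each library in turn, no test for single outlying libraries was made, since groups of 3 mice are small for one.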

How the results depend on the processing

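The labels give no shared replicate numbers, but 5 pairs of wild-type and knockout mice shared a cage and a time. A paired fit of these 10 libraries with cage as a replicate block, chosen after seeing the data, called 0 cytosolic and 0 mitochondrial genes, and so did the same libraries with time in place of cage and no block (0 and 0), so the calls ended in this smaller number of libraries with or without the block. Deviations from the group means correlated by -0.17 to 0.543 within the cage pairs, so cage mates did not deviate together in every pair. The pair of ZT16 (-0.0805) includes the wild-type library whose sex label and Xist reads disagree. Whether its cage label holds was not tested. Signs turned in the paired fit and in the unpaired one for Lars2 (0.189, 0.190), Farsa (-0.065, -0.056), Yars (-0.045, -0.049), Wars (0.023, 0.019), Hars2 (-0.0093, -0.0089) and Vars2 (-0.011, -0.037), and in the unpaired one for Vars (-0.011). Cytosolic genes higher in knockout over all times numbered 8, but 5 with DESeq2 size factors, 3 without the filter on low counts and 3 without the sex term. Leaving out 1 library gave 3 to 10 cytosolic genes higher and 0 to 1 lower, and 7 to 9 mitochondrial genes higher and 0 to 1 lower. Without the libraries of ZT16 and ZT20, 1 cytosolic gene was lower, and the interaction came to 1. The rhythms then came to 8 in wild type and 0 in knockout, their difference to 1 and the sex difference to 9. The calls at ZT0, ZT4, ZT8 and ZT12 came to 2, 3, 10 and 9, with the share over all genes at these times not counted. In the libraries of ZT16 and ZT20 alone, a fit chosen after seeing the data, 0 cytosolic and 1 mitochondrial genes were higher. Calls at ZT4 and ZT8 were 0 and 2 without the filter, and also without the sex term. Calls at ZT20 were 0 without the sex term, 2 at a minimum of 1 CPM and 3 with the GC trend removed or with DESeq2, which called 2 at ZT4 and 2 rhythm differences. The interaction gave 1 with age as a term. The sex difference gave 4 genes without the filter and 14 with the GC trend removed. With 1 library left out the calls ran from 0 to 1 at ZT0, 0 to 2 at ZT4, 2 to 5 at ZT8, 1 to 5 at ZT12, 1 to 3 at ZT16 and 0 to 3 at ZT20, 1 to 2 for the interaction, 19 to 23 and 11 to 17 for the rhythms of wild type and knockout, 1 to 2 for their difference and 4 to 10 for sex. Directions turned in the ZT16 and ZT20 libraries alone for Cars (0.031), Ears2 (-0.0089), Lars2 (0.10), Vars (-0.066), Yars (-0.053) and Yars2 (-0.026), none of them called over all times. Dars, near 0, was at -0.0067 with DESeq2 size factors, -0.0049 at a minimum of 1 CPM, -0.029 without ZT16 and ZT20, -0.0066 with DESeq2 and from -0.052 to 0.056 with 1 library left out. Nars ran from -0.039 to 0.0014 and Lars2 from -0.83 to 0.15 that way. The causes were not tested. Depth limits Mars2, Sars2 and Pars2 most.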
